A study of Mus musculus with 10 samples.

Results

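The proximal signaling genes of the T cell receptor (TCR) were followed in tumor-draining lymph nodes (TDLNs) after microwave ablation (MWA) with or without 2-deoxy-D-glucose (2DG). The set holds 9 genes taken by name out of the 33585 genes in the deposited tables, with earlier results of these data known. They are the kinases Lck, Fyn, Zap70, Txk and Prkcq, the adaptors Lat and Lcp2, the phospholipase Plcg1 and the phosphatase Ptpn22. Each was found in all 10 libraries, and each passed the filter on low values (a mean of at least 1 FPKM).

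The libraries came from whole nodes of female BALB/c mice, 6 weeks old, that carried orthotopic 4T1 tumors, a mouse mammary carcinoma line. All tumors were ablated on day 10, and all nodes were taken on day 15, so the 2 groups share the tumor and the ablation and there is no node without either. The MWA group (n = 5 libraries) is labelled only by the ablation, and per the study's methods these mice received PBS. The MWA+2DG group (n = 5 libraries) received 2DG, a glucose analogue that blocks glycolysis, at 500 mg/kg every 2 days, by injection into the peritoneum. The comparison asks how inhibition of glycolysis after ablation changed the node.

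When the TCR binds its antigen, the Src family kinases Lck and Fyn phosphorylate the CD3 chains, and Zap70 docks on the phosphorylated chains. Zap70 then phosphorylates the membrane adaptor Lat and the cytosolic adaptor Lcp2 (SLP-76), which together gather Plcg1 for activation by Tec family kinases such as Txk. Plcg1 yields calcium release and diacylglycerol, and diacylglycerol brings Prkcq (protein kinase C theta) to the contact site, while the phosphatase Ptpn22 switches Lck and Zap70 off. In a lymph node several of these genes are used mainly by T cells, while others are also used by other cells, NK cells among them. B cells run the same steps through relatives such as Syk, Btk, Blnk and Plcg2.

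Promoter windows of 3 of the genes are shown first, because Prkcq and Txk were the members with the largest support for a group difference and Lck the most abundant member with the least. Each window is the 250 bases upstream of a start listed by RefSeq on build GRCm38.p6, read in the direction of the gene. Capitals mark AGGAAG (or its reverse complement CTTCCT), letters bound by ETS factors, and TGTGGT (or ACCACA), letters bound by RUNX factors. The windows are Prkcq at chr2:11172132-11172381 (plus strand), Txk start 1 at chr5:72752778-72753027 (minus strand), Lck start 1 at chr4:129573642-129573891 (minus strand) and Lck start 2 at chr4:129558373-129558622 (minus strand).
Prkcq: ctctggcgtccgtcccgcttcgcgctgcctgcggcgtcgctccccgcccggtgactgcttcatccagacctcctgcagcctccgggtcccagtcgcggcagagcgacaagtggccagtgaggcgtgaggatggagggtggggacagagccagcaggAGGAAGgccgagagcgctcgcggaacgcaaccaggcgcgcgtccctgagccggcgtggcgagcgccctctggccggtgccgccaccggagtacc
Txk start 1: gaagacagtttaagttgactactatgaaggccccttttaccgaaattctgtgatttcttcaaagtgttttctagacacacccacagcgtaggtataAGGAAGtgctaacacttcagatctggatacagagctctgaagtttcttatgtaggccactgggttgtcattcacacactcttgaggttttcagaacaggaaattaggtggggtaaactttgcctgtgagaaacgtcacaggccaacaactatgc
Lck start 1: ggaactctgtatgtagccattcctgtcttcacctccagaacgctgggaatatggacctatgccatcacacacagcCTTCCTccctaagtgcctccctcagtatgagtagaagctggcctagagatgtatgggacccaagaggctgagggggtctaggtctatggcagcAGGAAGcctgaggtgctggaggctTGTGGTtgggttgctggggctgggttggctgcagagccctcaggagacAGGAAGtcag
Lck start 2: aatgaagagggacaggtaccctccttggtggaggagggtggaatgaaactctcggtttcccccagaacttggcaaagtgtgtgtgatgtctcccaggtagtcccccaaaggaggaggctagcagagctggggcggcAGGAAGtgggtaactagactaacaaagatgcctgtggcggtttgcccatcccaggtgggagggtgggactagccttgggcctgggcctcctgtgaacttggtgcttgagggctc

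The 4 windows differed in composition and in these letters. The Prkcq window was the richest in G and C of the 14 windows found for the 9 members, at 72.4% with 30 CpG pairs, and it held AGGAAG once, beginning 94 bases before the start. The window at Txk start 1 had a GC content of 42.8% with 3 CpG pairs and held AGGAAG once, 154 bases before the start. The window at Txk start 2, 16175 bases away and not shown, held no ETS letters and the RUNX letters once, 20 bases before the start. Lck has starts 15269 bases apart in RefSeq and is known for a distal and a proximal promoter. The window at Lck start 1 held the ETS letters 3 times, the nearest 10 bases before the start, and the RUNX letters once, while the window at start 2 held the ETS letters once and no RUNX letters. The FPKM values are per gene, so they do not say which start was used. On both strands, AGGAAG was in 10 of the 14 member windows (71.4%), from 7 of the 9 genes, against 29.5% of the 32851 windows of all genes. TGTGGT was in 4 of the 14 windows (28.6%), one each from Lck, Zap70, Txk and Ptpn22, against 14.0% of all windows. CAGGTG, letters of the E-box, was in 28.6% of member windows and 17.2% of all, and CTTTGA, letters bound by TCF and LEF factors, was in 28.6% and 13.8%. Some of these words begin with letters that another ends in, so neighbouring matches can share bases, and windows of 1 gene are not independent. A match is a description of the letters and not a binding site.

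FPKM values are fragments scaled to the length of the transcript and to the mapped reads of the library. They hold no read counts, so the depth of the libraries is unknown. Between 24327 and 25226 genes were above 0 in a library. Nodes held T cell markers (16 of 16 above the filter, summed 867 to 1488 FPKM) and B cell markers (10 of 10, summed 1667 to 2010 FPKM), while only 2 of 10 epithelial markers had a mean of at least 1 FPKM. Libraries numbered 1 and 2 stood apart from libraries numbered 3 to 5 in both groups: 488 of 13334 genes differed between these sets at an adjusted p below 0.05 (limma with group as a term), and the first principal component, which separated them, took 36.4% of the variance. Liver transcripts followed the same sets, with 10 summed liver markers at 22.0 to 27.3 FPKM in the libraries numbered 1 and 2 and 85.6 to 206 FPKM in the others. The labels name no batch and no such sets. The sets were picked with these data known, so the 488 genes and their adjusted p values describe the sets and do not test them. Results are also given within each set, with only 2 libraries per group for replicates 1 and 2. Whole nodes were sequenced, so for every gene below fewer cells of a type and less RNA per cell cannot be told apart.

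The 9 genes spanned a wide range of levels in the node. As means of the 10 libraries, the level per transcript length ran in the order Lck (129 FPKM), Lat (77.7), Fyn (38.2), Zap70 (26.7), Lcp2 (23.5), Plcg1 (19.8), Prkcq (12.9), Ptpn22 (11.5) and Txk (2.93). Lck, the kinase that opens the cascade, was thus 44.1-fold above Txk. The order held in 10 of 10 libraries for 5 of the 8 neighbouring pairs. It did not hold in all libraries for Zap70 over Lcp2 (8 of 10), Lcp2 over Plcg1 (9 of 10) and Prkcq over Ptpn22 (7 of 10), so these neighbours were not separated by their spread. The coefficient of variation over the 10 libraries was smallest for Lcp2 (9.36%) and largest for Ptpn22 (27.3%).

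All 9 genes had a higher mean in the MWA+2DG group, but few differences exceeded the spread between mice and none passed correction. The differences in log2(FPKM + 1), MWA+2DG minus MWA, had a median of 0.18 over the members and of 0.0074 over all tested genes, and 52.6% of all tested genes were positive. When single libraries were left out, the member median lay between 0.10 (without MWA replicate 4) and 0.26 (without MWA replicate 1). By the study's rule (unadjusted limma P below 0.05 and a log2 difference beyond 0.25), 2 of the 9 members were called, Prkcq and Txk, both higher with 2DG, against 0.952% of all tested genes called higher, 1.87% called lower and 2.82% called in either direction. With Benjamini-Hochberg adjustment over the 13334 genes, limma called 0 members and 0 genes (0%). The adjusted p was 0.995 for each of the 9 members, and 567 genes (4.25%) had an unadjusted P below 0.05, 1.63% of all genes being higher. In none of the 9 genes did the groups separate, while the groups separated in 0.802% of all genes, and 0.292% had every MWA+2DG library above every MWA library. The number of members called depended on single libraries: it was 1 without MWA replicate 2 or 3 or MWA+2DG replicate 1 or 5, and 3 without MWA replicate 5 or MWA+2DG replicate 3.

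**Figure D1:**
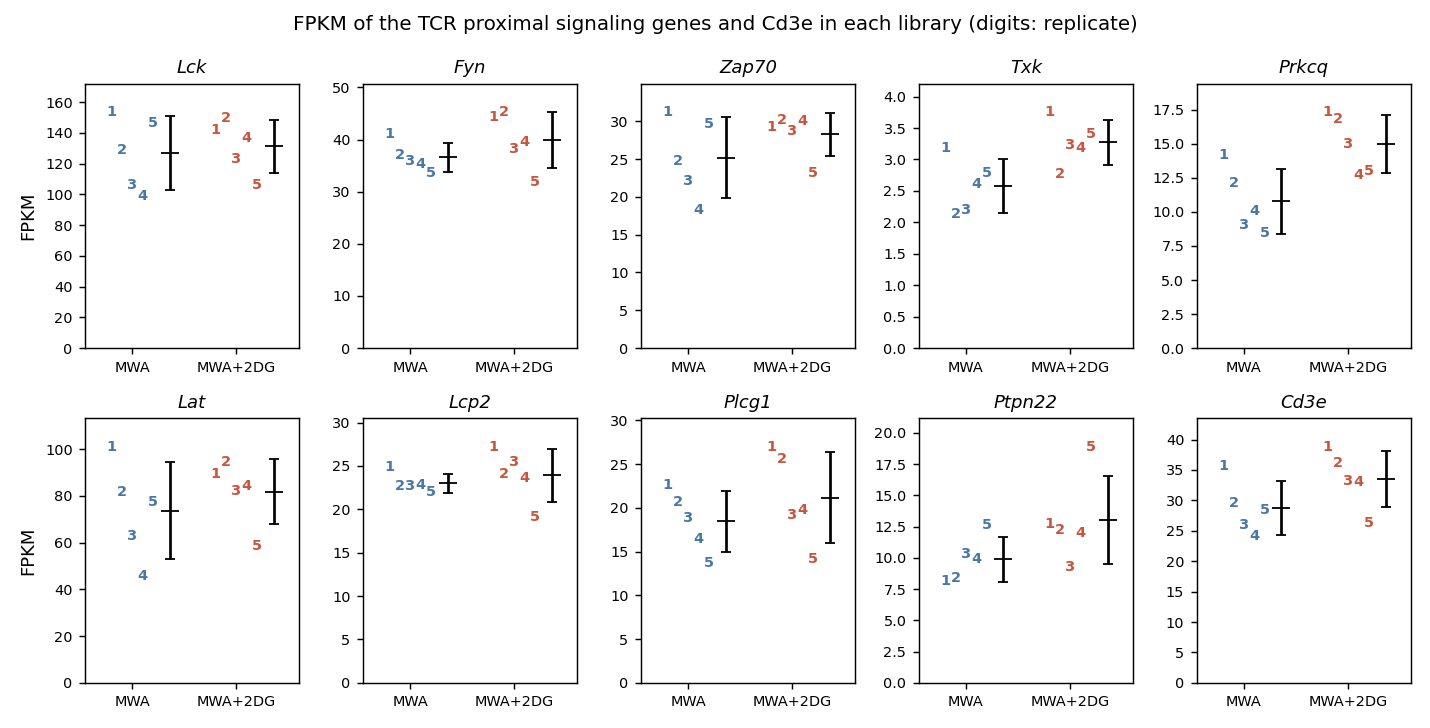
FPKM (linear axes from 0) of the 9 genes and Cd3e in each library, with the digit giving the replicate number and the black bar the mean ± SD of the 5 libraries of a group. Prkcq and Txk show the clearest shift upward in MWA+2DG, with 3 and 4 of 5 libraries above every MWA library, while Lck in MWA+2DG lies within the MWA range. For Lcp2 2 of 5 MWA+2DG libraries lie above every MWA library, and MWA+2DG replicate 5 is the lowest of all.

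The Src family kinases differed little. Lck (ENSMUSG00000000409), which phosphorylates the CD3 chains and Zap70, had 154, 129, 106, 98.9 and 146 FPKM in MWA replicates 1 to 5 and 142, 150, 123, 137 and 106 FPKM in MWA+2DG replicates 1 to 5. The highest Lck value of all 10 was in MWA replicate 1, and MWA+2DG replicate 5 lay at the level of MWA replicate 3, so the groups overlapped fully. The means were 131 ± 17.3 FPKM with 2DG and 127 ± 24.0 FPKM without (SD, n = 5 each), a log2 difference of 0.062 with a 95% interval of -0.25 to 0.37 (limma P = 0.666, two-sided exact permutation p = 0.706). The Lck difference was 0.050 within replicates 1 and 2 and 0.070 within replicates 3 to 5. Fyn, which shares substrates with Lck, had 41.0, 36.9, 36.0, 35.3 and 33.6 FPKM in the MWA libraries and 44.3, 45.3, 38.2, 39.6 and 32.0 FPKM in the MWA+2DG libraries. For Fyn 2 MWA+2DG libraries lay above every MWA library, but replicate 5 of that group was the lowest of the 10. Its log2 difference was 0.11 (95% interval -0.11 to 0.33, limma P = 0.280, exact permutation p = 0.286), and 0.066 to 0.19 when single libraries were left out (lowest without MWA+2DG replicate 2, highest without MWA+2DG replicate 5). The Fyn difference was 0.20 within replicates 1 and 2 and 0.058 within replicates 3 to 5.

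Zap70, the Syk family kinase of T cells, had 31.2, 24.8, 22.1, 18.3 and 29.6 FPKM in the MWA libraries. In the MWA+2DG libraries it had 29.2, 30.2, 28.7, 30.0 and 23.2 FPKM. Here 4 MWA+2DG libraries lay between 28.7 and 30.2 FPKM, inside the range of the MWA group, which ran from 18.3 to 31.2 FPKM. The log2 difference was 0.18 (95% interval -0.13 to 0.49, limma P = 0.231, exact permutation p = 0.317), and 0.074 without MWA replicate 4. It was 0.091 within replicates 1 and 2 and 0.24 within replicates 3 to 5.

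Txk, a Tec family kinase that phosphorylates Plcg1, was the weakest expressed member and was 26.7% higher with 2DG. It had 3.18, 2.14, 2.20, 2.61 and 2.79 FPKM in the MWA libraries and 3.76, 2.77, 3.24, 3.19 and 3.41 FPKM in the MWA+2DG libraries. Of the MWA+2DG libraries 4 of 5 were above every MWA library, and the groups overlapped through MWA replicate 1, which was high, and MWA+2DG replicate 2, which was low. The means were 3.27 ± 0.358 and 2.58 ± 0.433 FPKM (SD, n = 5), a log2 difference of 0.26 ± 0.097 (SE; limma P = 0.0219, exact permutation p = 0.0317), close to the fold threshold of the rule. The difference was 0.23 within replicates 1 and 2 and 0.28 within replicates 3 to 5. Leaving out MWA+2DG replicate 5 gave 0.246, just under the threshold, and leaving out MWA replicate 2, MWA replicate 3 or MWA+2DG replicate 1 gave 0.21 to 0.22, past neither threshold.

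The adaptors overlapped between the groups. Lat (ENSMUSG00000030742), the membrane scaffold phosphorylated by Zap70, had 101, 81.6, 62.7, 45.8 and 77.4 FPKM in the MWA libraries and 89.6, 94.4, 82.3, 84.2 and 58.5 FPKM in the MWA+2DG libraries. Lat was highest in MWA replicate 1 and lowest in MWA replicate 4, so the MWA group spanned the whole range. Its log2 difference was 0.18 (95% interval -0.26 to 0.62, limma P = 0.395, exact permutation p = 0.452), and it was 0.018 within replicates 1 and 2, 0.28 within replicates 3 to 5 and 0.021 without MWA replicate 4. Lcp2, the cytosolic adaptor that links Lat to Plcg1, lay between 22.0 and 24.9 FPKM in the MWA libraries and between 19.1 and 27.2 FPKM in the MWA+2DG libraries. For Lcp2 2 MWA+2DG libraries lay above every MWA library, and MWA+2DG replicate 5 was the lowest of the 10. Lcp2 had the smallest difference of the 9, 0.045 on the log2 scale (95% interval -0.16 to 0.25, limma P = 0.630, exact permutation p = 0.619). Without MWA+2DG replicate 1 its sign changed, and without MWA+2DG replicate 5 it was 0.12. Within replicates 1 and 2 it was 0.10, and within replicates 3 to 5 it was 0.0060.

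Downstream of the adaptors, Plcg1, which cleaves the membrane lipid that gives calcium release and diacylglycerol, had 22.6, 20.7, 18.9, 16.4 and 13.7 FPKM in the MWA libraries and 27.0, 25.6, 19.2, 19.7 and 14.2 FPKM in the MWA+2DG libraries. Only MWA+2DG replicates 1 and 2 were above every MWA library. The log2 difference of Plcg1 was 0.17 (95% interval -0.22 to 0.57, limma P = 0.352, exact permutation p = 0.397), with 0.27 within replicates 1 and 2 and 0.11 within replicates 3 to 5, and leaving out single libraries moved it between 0.078 and 0.30.

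Prkcq (ENSMUSG00000026778), the diacylglycerol-dependent kinase that leads to NF-kappaB and AP-1, had the largest difference of the 9 and was 38.9% higher with 2DG. It had 14.2, 12.1, 9.04, 10.04 and 8.47 FPKM in the MWA libraries and 17.3, 16.8, 15.0, 12.7 and 13.02 FPKM in the MWA+2DG libraries. All MWA+2DG libraries were above 4 of the 5 MWA libraries, and the groups overlapped through MWA replicate 1 alone. The means were 15.0 ± 2.12 and 10.8 ± 2.37 FPKM (SD, n = 5), a log2 difference of 0.45 ± 0.14 (SE; 95% interval 0.14 to 0.76, limma P = 0.00880, exact permutation p = 0.0317). The smallest p that this permutation test can give with 5 against 5 is 0.00794. Prkcq also differed between the replicate sets, by 0.40 (libraries numbered 1 and 2 higher, adjusted p = 0.0282 in limma, for sets picked with these data known). Within the sets the group difference was 0.35 (replicates 1 and 2) and 0.52 (replicates 3 to 5). Prkcq kept an unadjusted limma P below 0.05 in all 21 alternative settings run, with a difference between 0.35 and 0.55.

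Ptpn22, the phosphatase that restrains Lck and Zap70, ran differently from most other members. It had 8.17, 8.38, 10.3, 9.88 and 12.7 FPKM in the MWA libraries and 12.7, 12.2, 9.31, 12.0 and 18.9 FPKM in the MWA+2DG libraries. MWA+2DG replicate 5, the lowest of its group for Lck, Fyn, Zap70, Lat, Lcp2 and Plcg1, was the highest of all libraries for Ptpn22, and MWA replicate 1, the highest of its group for the 8 other members, was the lowest for Ptpn22. The means were 13.03 ± 3.54 and 9.88 ± 1.81 FPKM (SD, n = 5), a log2 difference of 0.35 ± 0.17 (SE; 95% interval -0.021 to 0.72, limma P = 0.0622, exact permutation p = 0.0952). With that MWA+2DG library left out the difference was 0.21, within replicates 1 and 2 it was 0.54 and within replicates 3 to 5 it was 0.22. In that library the summed NK cell markers were the highest of the 10 (203 FPKM, against 58.6 to 140 FPKM in the others) and so were the summed fat tissue markers (129 FPKM, against 5.94 to 74.8 FPKM), and their part in the result was not tested. Of the 10 NK cell markers 7 had a mean of at least 1 FPKM, led by Nkg7 (35.8 FPKM) and Gzma (25.7 FPKM). The sum is therefore no measure of NK cells alone.

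**Figure D2:**
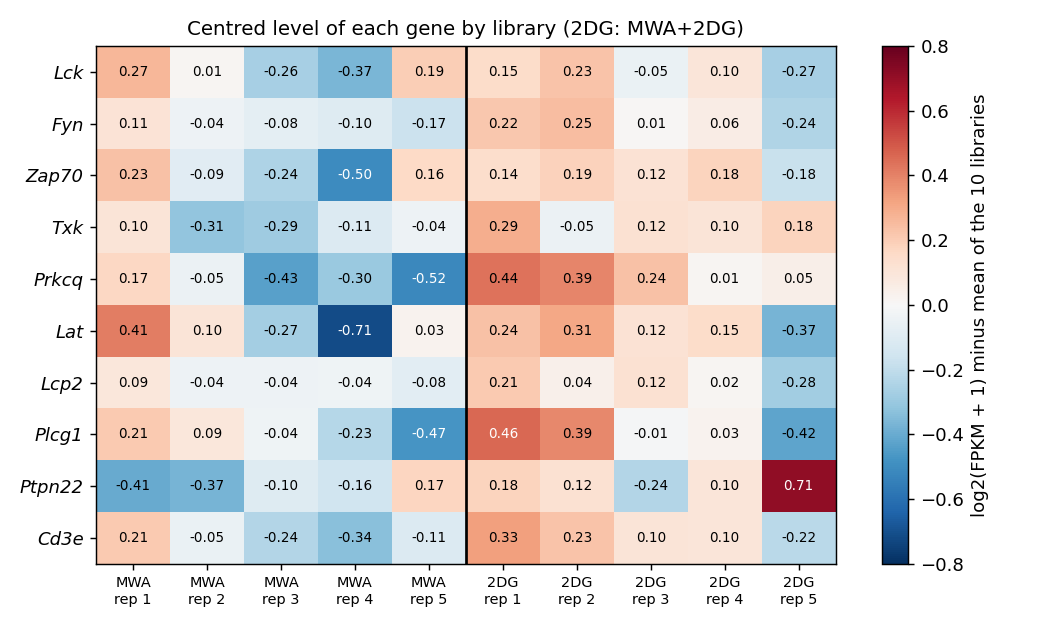
Centred log2(FPKM + 1) of the 9 genes and Cd3e (rows) in the 10 libraries (columns), each value being the difference from that gene's mean over the libraries, with red above and blue below the mean. MWA+2DG replicates 1 and 4 are above the mean for 9 of 9 genes, MWA replicates 3 and 4 for 0 of 9, and Ptpn22 departs from the other rows in MWA+2DG replicate 5 (0.71).

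The members were then compared with each other over the libraries, as the root mean square distance between centred log2 profiles, which is a description since all values share the same 10 libraries. MWA+2DG replicates 1 and 4 were above the gene's own mean for 9 of 9 members and MWA replicates 3 and 4 for 0 of 9. The closest pairs were Fyn with Lcp2 (0.085) and Lck with Zap70 (0.088), against a median of 0.25 over the 36 pairs. Lat and Ptpn22 were the farthest apart (0.51). The 8 pairs that include Ptpn22 had distances of 0.28 (with Txk) or more, and the 28 pairs without it had a median of 0.22 and a maximum of 0.33. The mean profile of the 9 members lay nearest to Rinl (0.051) and then to Cd3e (0.060), with Hsdl1 (0.066) and Zbtb11os1 (0.071) also among the nearest 5, against a median of 0.21 over the 13325 other tested genes. Cd3e, the epsilon chain of CD3, was therefore second of 13325 in closeness. Zbtb11os1 has a low level (mean of 1.39 FPKM) and lies opposite to another gene, so without a stated strand setting reads of the pair may be shared.

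Set against Cd3e, a marker of T cells, the differences between the groups largely lost their common direction. Cd3e had 35.7, 29.6, 26.0, 24.2 and 28.4 FPKM in the MWA libraries and 38.8, 36.2, 33.1, 33.0 and 26.4 FPKM in the MWA+2DG libraries. Cd3e was lowest in MWA replicate 4, was higher in MWA+2DG replicates 1 and 2 than in every MWA library, and differed by 0.21 on the log2 scale (95% interval -0.059 to 0.48, limma P = 0.112, exact permutation p = 0.127). Of the log2 differences relative to Cd3e, 3 of 9 were positive (Prkcq 0.24, Ptpn22 0.14 and Txk 0.045) and the member median was -0.035. This scale shifts all genes down by the difference of Cd3e itself: the median of all 13333 genes was -0.21, only 5.01% were positive, and the study's rule called 18.8% of them (18.7% lower and 0.03% higher). The groups separated in 0 of the 9 members and in 3.02% of all genes. The rule called 0 of the 9 members on this scale, and limma with adjustment called 0 members and 0 genes (0%), with 2590 genes (19.4%) at an unadjusted P below 0.05. These counts over all genes rested on single libraries: without MWA replicate 1 the adjusted test called 507 genes, and the 2499 genes called lower by the rule became 5268 in the same setting, 4264 with MWA+2DG replicate 5 left out and 1265 with replicate 1 of that group left out. Leaving out MWA replicate 3, MWA replicate 4 or MWA+2DG replicate 2 gave 1556 to 1597 genes called lower, and Trac as the reference gave 688. With Trac, a chain of the receptor itself, in place of Cd3e, 6 of 9 members were positive (median 0.023), against 10.3% of all genes. With the mean of the 16 T cell identity markers as the reference, 3 of 9 were positive (median -0.00083), against 7.63% of all genes.

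**Figure D3:**
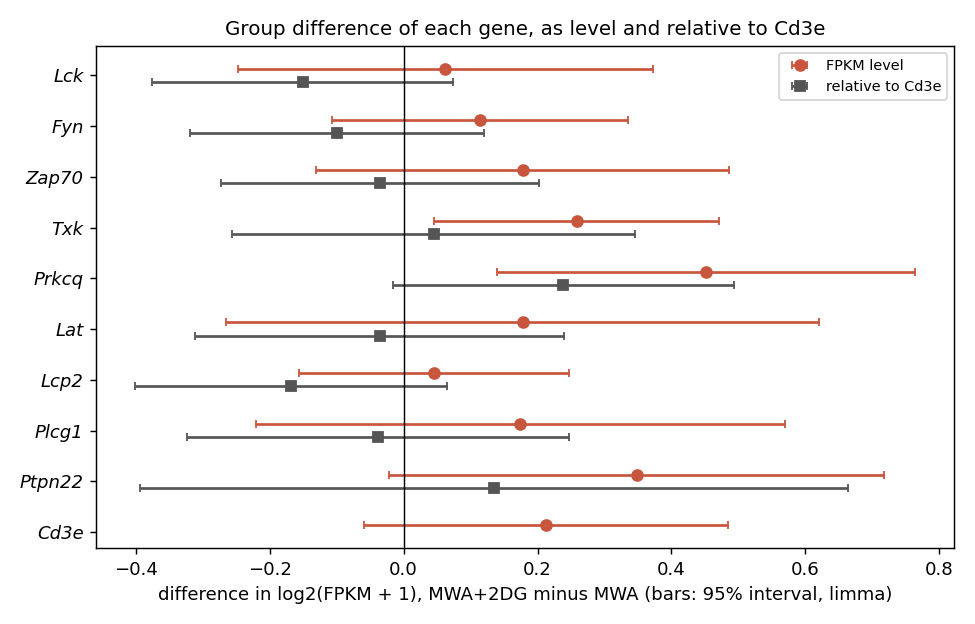
Difference in log2(FPKM + 1), MWA+2DG minus MWA, for each gene as a level (circles) and relative to Cd3e (squares), with 95% limma intervals (n = 5 libraries per group). The level intervals of Prkcq (0.14 to 0.76) and Txk (0.045 to 0.47) lie above 0, and relative to Cd3e the intervals of all 9 genes include 0.

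Prkcq had the highest difference of the 9 relative to Cd3e. Its FPKM ratio to Cd3e was 0.398, 0.410, 0.348, 0.415 and 0.298 in the MWA libraries and 0.447, 0.465, 0.452, 0.385 and 0.494 in the MWA+2DG libraries. Thus 4 of 5 MWA+2DG libraries were above every MWA library, and MWA+2DG replicate 4 overlapped. The mean ratios were 0.449 ± 0.0399 and 0.374 ± 0.0499 (SD, n = 5), and the log2 difference was 0.24 ± 0.12 (SE; 95% interval -0.017 to 0.49, limma P = 0.0643, adjusted p = 0.266, exact permutation p = 0.0397). It ranged from 0.17 to 0.29 when single libraries were left out, and was 0.16 within replicates 1 and 2 and 0.29 within replicates 3 to 5.

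Lck and Lcp2 lay lowest of the 9 members relative to Cd3e, though above the median of all genes on this scale (-0.21). The FPKM ratio of Lck to Cd3e was 4.30, 4.35, 4.09, 4.09 and 5.15 in the MWA libraries and 3.65, 4.14, 3.71, 4.15 and 4.02 in the MWA+2DG libraries. MWA replicate 5 was high, and 3 of the 5 MWA+2DG libraries were below every MWA library. The log2 difference of Lck relative to Cd3e was -0.15 (95% interval -0.37 to 0.073, limma P = 0.169, adjusted p = 0.358, exact permutation p = 0.0635) and that of Lcp2 was -0.17 (95% interval -0.40 to 0.065, limma P = 0.142, adjusted p = 0.338, exact permutation p = 0.0873). The 6 other members lay between -0.099 (Fyn) and 0.14 (Ptpn22), each with a 95% interval that includes 0 and exact permutation p values from 0.230 to 0.786. With MWA+2DG replicate 5 left out, Ptpn22 and Txk were at -0.080 and -0.048.

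The chains and coreceptors through which these enzymes act lay in the same direction. All 14 listed genes of the TCR complex and its coreceptors, Cd3e included, were positive (median 0.17), and the rule called 1 of them higher, Cd8a, the coreceptor chain that brings Lck to class I complexes. Cd8a had 39.3, 27.6, 25.2, 33.8 and 28.3 FPKM in the MWA libraries and 38.4, 37.7, 38.6, 36.6 and 35.3 FPKM in the MWA+2DG libraries, so that the MWA+2DG libraries were above 4 of the 5 MWA libraries. Its log2 difference was 0.28 (limma P = 0.0267, exact permutation p = 0.0556). Cd4, the class II coreceptor, was at 0.23 (limma P = 0.0489, exact permutation p = 0.0794) and the costimulatory receptor Cd28 at 0.23 (limma P = 0.0667, exact permutation p = 0.0952). The number called in this list was 0 to 6 when single libraries were left out, with 6 without MWA replicate 1 or MWA+2DG replicate 5, and within replicates 1 and 2 only 10 of the 14 were positive.

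Of 24 other activators and scaffolds of the cascade, 20 were positive (median 0.096), and the rule called 4 higher and 0 lower. Trat1, an adaptor that stabilises the receptor complex, had 5.83, 4.60, 6.98, 5.81 and 6.55 FPKM in the MWA libraries and 8.84, 7.89, 9.48, 7.00 and 6.27 FPKM in the MWA+2DG libraries. For Trat1 4 of 5 MWA+2DG libraries were above every MWA library, and its log2 difference was 0.35 (limma P = 0.0154, exact permutation p = 0.0317). Grap2 (Gads), which joins Lcp2 to Lat, was at 0.30 (limma P = 0.0489, exact permutation p = 0.0873), and Themis, a thymocyte signaling regulator that binds the same adaptors, was at 0.26 (limma P = 0.0418, exact permutation p = 0.0635). Fyb (ADAP), a partner of Lcp2, was the only named gene whose groups separated, with 17.7 to 21.25 FPKM in the MWA libraries and 21.32 to 25.8 FPKM in the MWA+2DG libraries. Its log2 difference of 0.247 (limma P = 0.0130, exact permutation p = 0.00794, the smallest possible) lay just under the fold threshold. The number called in this list was 2 to 5 higher when single libraries were left out, and 1 within replicates 3 to 5.

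Among 22 genes that restrain the cascade, 14 were positive (median 0.073) and the rule called 1 higher. Dgka, which removes the diacylglycerol that recruits Prkcq, had 88.6, 80.3, 72.0, 70.2 and 61.8 FPKM in the MWA libraries. In the MWA+2DG libraries it had 108, 95.7, 103, 87.7 and 80.1 FPKM. Dgka was above every MWA library in 3 of 5 MWA+2DG libraries, and its log2 difference was 0.35 ± 0.11 (SE; limma P = 0.0109, exact permutation p = 0.0397). The ubiquitin ligase Cblb was at 0.22 (limma P = 0.0903, exact permutation p = 0.111) and the phosphatase Ubash3a at 0.19 (limma P = 0.113, exact permutation p = 0.143). The direction of this list turned with 1 library, with a median of -0.00357 and 10 of 22 positive without MWA replicate 5.

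The B cell counterparts of the same steps lay on the other side of 0. Of 8 listed genes 7 were negative (median -0.14), and the rule called 0 of them, with 1 of 8 at an unadjusted limma P below 0.05. Blnk, which takes the place of Lcp2 in B cells, had a mean of 24.7 ± 2.13 FPKM with 2DG and 28.1 ± 1.44 FPKM without (SD, n = 5), a log2 difference of -0.18 (limma P = 0.0332, adjusted p = 0.995, exact permutation p = 0.0317). The others were Lat2 (-0.17), Plcg2 (-0.16), Blk (-0.16), Syk (-0.13), Btk (-0.097), Lyn (-0.070) and Prkcb (0.068), with exact permutation p values from 0.111 to 0.532. Some of these genes, Lyn, Syk and Plcg2 among them, are used by myeloid cells as well. Under rescaling of each library to 1000000, quantile normalization and median ratio scaling 7 of 8 were negative as well, with medians of -0.081, -0.080 and -0.14, and within replicates 1 and 2 the median was -0.036.

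Each member was also set against its counterpart within the same library, which removes the scaling of the library. The pairs were chosen with their values known, so the ratios are given without a test. A log2 ratio is the member minus its counterpart, so the direction of the ratios follows from the differences above and is no further support. All 8 ratios (Ptpn22 has no counterpart here) had a higher mean log2 value in MWA+2DG, and in none of them did the groups separate. Prkcq relative to Prkcb, a protein kinase C used by B cells, had a mean ratio of 1.08 ± 0.127 with 2DG and 0.814 ± 0.132 without (SD, n = 5), with 4 of 5 MWA+2DG libraries above every MWA library. The differences in the log2 ratio were 0.45 for Txk over Btk, 0.42 for Prkcq over Prkcb, 0.36 for Lat over Lat2, 0.35 for Plcg1 over Plcg2 and 0.31 for Zap70 over Syk. They were 0.24 for Lcp2 over Blnk, 0.23 for Lck over Blk and 0.19 for Fyn over Lyn.

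**Figure D4:**
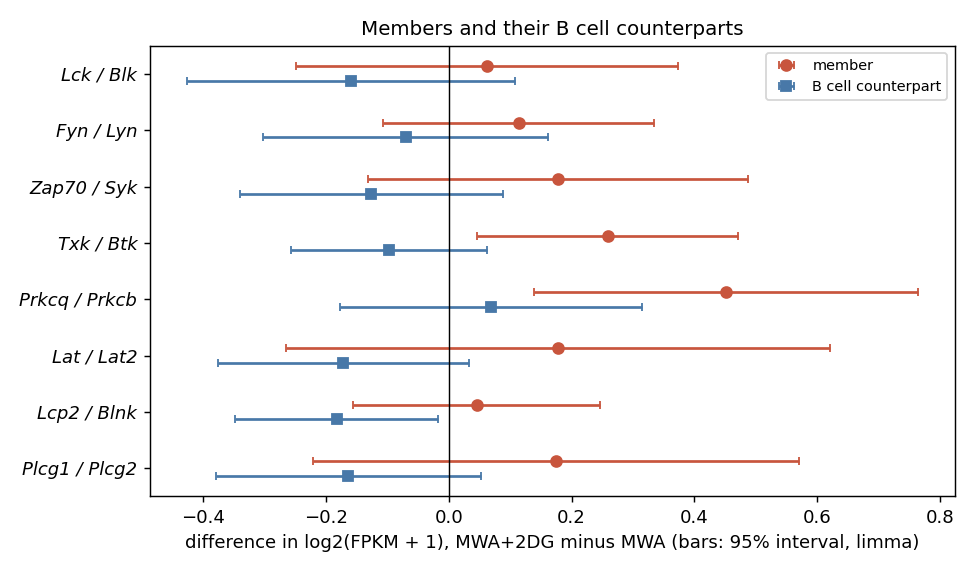
Difference in log2(FPKM + 1), MWA+2DG minus MWA, of 8 T cell members (circles) and of the B cell gene that takes the same step (squares), with 95% limma intervals (n = 5 libraries per group). The 8 circles are above 0 and 7 of the 8 squares below it, and most intervals include 0.

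Markers of the cells in the node were measured beside these differences. The summed T cell identity markers (16 of 16 positive, 2 called higher) were 867 to 1488 FPKM in MWA and 922 to 1452 FPKM in MWA+2DG, a log2 difference of 0.16 (two-sided exact permutation p = 0.397). It lay between 0.068 (without MWA replicate 4) and 0.26 (without MWA+2DG replicate 5) when single libraries were left out. The summed B cell markers (1 of 10 positive) were 1756 to 2010 FPKM and 1667 to 1921 FPKM (difference -0.073, exact permutation p = 0.183), and after rescaling of each library to 1000000 the difference was -0.0094. The summed macrophage and monocyte markers, mostly Lyz2, were 1616 to 2502 FPKM in MWA and 1135 to 1676 FPKM in MWA+2DG (difference -0.42, exact permutation p = 0.0317). Of these 10 markers 3 were positive (median -0.076) and 2 were called lower, so the sum mostly reflects Lyz2 (mean of 1454 FPKM). For this sum the exact permutation p was below 0.05 in 7 of 11 alternative settings. The summed neutrophil markers were 14.9 to 97.9 FPKM and 3.87 to 23.5 FPKM (difference -1.49, exact permutation p = 0.0397), with 6 of the 10 markers below a mean of 1 FPKM, and without MWA replicate 1 the difference was -1.01 (exact permutation p = 0.0794). NK cell markers differed by 0.034, platelet and mast cell markers by 0.075, stromal and endothelial markers by -0.017, liver markers by -0.34, fat tissue markers by 1.06 and epithelial markers by 0.34, each with an exact permutation p of 0.246 or more. Without MWA+2DG replicate 5 fat tissue markers differed by 0.57 and epithelial markers by 0.048. The part of these markers in the differences of the 9 members was not tested.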

How the data were processed

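RNA of 10 TDLNs (5 MWA, 5 MWA+2DG, 1 library per mouse) was sequenced. The authors mapped reads with HISAT2, quantified them with StringTie and ballgown and deposited 1 table of FPKM per library, and the submitters' processing notes also name cutadapt 1.9, UMI-tools, HISAT2 2.0.4, StringTie 1.3.4d and mm9. Since the RefSeq windows are on GRCm38.p6, their coordinates are RefSeq's and not those of the mapping. Use of strand during quantification: not given in the sources used here. FPKM depends on the other transcripts of a library and holds no read counts, so counting error could not be computed and only the spread between mice was used.

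Symbols matched 33541 of 33643 identifiers, values of 57 shared symbols were summed, and no pair of libraries shared more than a fraction of 0.000178 of nonzero values. The study's own rule for calls is an unadjusted limma P below 0.05 with a log fold change beyond 0.25. Under R 4.3.3, a model of group alone was fitted with limma 3.58.1 and moderated by eBayes on log2(FPKM + 1) of the 13334 genes whose mean reached 1 FPKM, with Benjamini-Hochberg adjustment over all of them. The log base, pseudocount and filter are choices made here, and fold changes of low genes are understated on this scale. Values relative to Cd3e are the same fit on log2(gene + 1) minus log2(Cd3e + 1). Single genes and marker sums were also tested by two-sided exact permutation over 252 regroupings (Python 3.11.15, numpy 2.4.6). The fit was also run on simulated data with independent noise for each gene and planted differences larger than those of the members. That run cannot tell how the fit performs for differences of the size seen here.

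The members and lists were chosen with earlier results of these data known. Named are the 9 members and Cd3e, in each of 3 pathway lists the 3 genes of smallest P and every gene called, all B cell counterparts, the 5 genes nearest in profile, and leading marker genes; some genes so selected are not reported here. Alternatives were another filter (none, or 5 FPKM), a smaller pseudocount (0.1), scaling by median ratios, by quantiles or to a sum of 1000000, limma-trend, no fold change threshold, other references than Cd3e, the replicate number as a block, the replicate set as a term and leaving out each library. The replicate sets were picked with these data known, and fits within each set were added after seeing the data.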

Additional observations from a re-analysis of the deposited data

Results flagged for a closer look

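Among the values of the members, their ratios to Cd3e and the named genes, 84 groups of 5 libraries were checked for a library far from the other 4 (Dixon's test at its 95% critical value of 0.710 for 5 samples), and 6 had one, where chance gives about 1 in 20. Zap70 was lowest in MWA+2DG replicate 5, at 23.2 FPKM, with 28.7 FPKM in the next library. Prkcb was lowest in the same library, at 11.1 FPKM (next 14.4 FPKM), and the FPKM ratio of Ptpn22 to Cd3e was highest there, at 0.717 (next 0.364). Lcp2 was highest of its group in MWA replicate 1, at 24.9 FPKM (next 22.8 FPKM). The FPKM ratio of Lck to Cd3e was highest in MWA replicate 5, at 5.15 (next 4.35), and Cblb was lowest there, at 5.95 FPKM (next 8.40 FPKM).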

How the results depend on the processing

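Prkcq kept its direction and an unadjusted limma P below 0.05 in all 21 alternatives, Txk kept its direction in all 20 and the P in 16, and Ptpn22 reached that P in 5 of 21. Members called numbered 1 with a filter of 5 FPKM (Txk was then not tested) or quantile normalization, 3 after rescaling to 1000000 (Ptpn22 in addition), 3 within replicates 1 and 2 (Prkcq, Plcg1 and Ptpn22, without Txk), and 1 to 3 when single libraries were left out. Members called relative to Cd3e numbered 0 to 1 in the same way (Prkcq without MWA or MWA+2DG replicate 4). Relative to Trac 6 members were positive, and relative to the T cell identity markers 3 were. Genes called higher numbered 127, against 69 with a filter of 5 FPKM, 328 after rescaling to 1000000, 218 with no fold threshold, 388 within replicates 1 and 2, and 82 to 222 (without MWA and MWA+2DG replicate 5) when single libraries were left out. Genes called lower numbered 249, against 161 with that filter, 159 after rescaling and 389 within replicates 3 to 5. The share of calls that were higher was 33.8% as deposited and 67.4% after rescaling, with medians of all genes of 0.0074 and 0.068. Genes at an adjusted p below 0.05 numbered 0 to 1 for levels when single libraries were left out (1 without MWA replicate 2). Relative to Cd3e they numbered 507 without MWA replicate 1 and 114 within replicates 1 and 2. In that last fit, with 2 libraries per group, all 9 members had the same SE (0.255), so its count is not comparable with the others. The cause of these shifts was not tested.

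Signs turned for values near 0. When single libraries were left out, the log2 difference ranged from -0.021 to 0.14 for Lck and from -0.00189 to 0.12 for Lcp2. Relative to Cd3e it ranged from -0.082 to 0.028 for Zap70, -0.048 to 0.12 for Txk, -0.13 to 0.011 for Lat, -0.13 to 0.00844 for Plcg1 and -0.080 to 0.24 for Ptpn22. Relative to Trac, Zap70 was at 0.023, Lat at 0.023 and Plcg1 at 0.020. Relative to Cd3e, Txk was at -0.00136 with quantile normalization, Plcg1 at 0.072 within replicates 1 and 2, and Zap70 at 0.013, Lat at 0.062 and Ptpn22 at -0.00132 within replicates 3 to 5. Summed markers ranged from -0.25 to 0.19 (NK cells), -0.18 to 0.31 (platelets and mast cells), -0.066 to 0.029 (stroma, 0.047 after rescaling) and -0.81 to 0.033 (liver).

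Same-numbered libraries of the groups deviated together with correlations of 0.331, 0.501, 0.110, 0.0334 and 0.151, not all over 0.1, so the libraries were taken to share only a number. With the replicate number as a block, 164 genes were called higher and 285 lower, and 3 members were called (Ptpn22 in addition). The depth is unknown, and 5 mice per group limit the precision.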
